A study of Mus musculus with 2 samples.

Results

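Wide footprints that recurred in both libraries are the subject: stretches of 25 bp or more inside open chromatin that DNase I cut less than their surroundings, in the gastrocnemius muscle of newborn mice. They were chosen by their width. A footprint of replicate 1 was taken as a member if it was at least 25 bp wide, lay on chromosomes 1 to 19 and overlapped by at least 1 bp a footprint of at least 25 bp in replicate 2. The rule took 18064 of the 205321 footprints of replicate 1, or 8.8%, and these overlapped 18061 of the 326933 footprints of replicate 2, of which 33632 (10.3%) were wide. Of the members, 7062 had their centre within 500 bp of a transcription start of the GENCODE vM21 annotation and are called promoter members. Another 10159 lay more than 1 kb from every such start and are called distal members, and 843 lay between.

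Both libraries came from the calf muscle of male B6CASTF1/J mice, the hybrid of C57BL/6J and CAST/EiJ, at 4 days of age, with 3 males named in each label. They are biological replicates 1 and 2 of 1 group, share a donor entry, and no treatment is named for either. With 1 group there is no contrast to test, so every value below is a description, given for replicate 1 and then replicate 2. The spread between these libraries may be technical, and the regions are not replicates of a condition. The number of reads is not given in the files.

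Transcription factors bound to DNA shield their binding site from nucleases, so a footprint marks bases that something covered. CTCF is a zinc-finger protein that holds chromatin loops together with cohesin, REST silences neuronal genes outside neurons, and NFI proteins bind a palindrome with a short spacer. At promoters, NF-Y binds CCAAT boxes, SP and KLF proteins bind GC boxes, and CREB and ATF proteins bind the cyclic AMP response element, while MyoD, myogenin and MEF2 factors drive muscle genes. At some sites CTCF contacts a further sequence upstream of its main motif with its remaining zinc fingers. Muscle tissue also holds fibroblasts, endothelium and Schwann cells, and in whole tissue fewer cells of a type and less open DNA per cell cannot be told apart.

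The sequences below show what the members look like. Each is a whole footprint of replicate 1, read 5′ to 3′ on the strand named, from the RefSeq GRCm38.p6 assembly (mm10), with the name of the nearest annotated gene first. This is the C57BL/6J reference, and the CAST/EiJ allele of these hybrids was not searched. The first set carries the CTCF motif, in capitals. The first 4 lie in the most accessible peaks among distal members with this motif, the next 2 are the widest members with the motif, and the last 3 lie near muscle genes: Ckm, muscle creatine kinase, Mef2c, a MADS-box activator of muscle genes, and Ttn, the giant sarcomere spring titin.
Gnai2, chr9:107612825-107612853, minus strand: ccgccggCCGCCAGGGGGCGCctcagccc
Rdh8, chr9:20831175-20831202, minus strand: acgtggCCACCAGGGGGCGCtaggagct
Bcan, chr3:87987132-87987163, minus strand: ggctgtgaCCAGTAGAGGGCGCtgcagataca
Gm44738, chr7:73618504-73618547, minus strand: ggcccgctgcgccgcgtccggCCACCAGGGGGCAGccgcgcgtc
Aanat, chr11:116592603-116592647, minus strand: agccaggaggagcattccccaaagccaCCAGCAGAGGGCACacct
Wrb, chr16:96145204-96145253, minus strand: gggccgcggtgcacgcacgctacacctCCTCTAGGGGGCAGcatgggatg
Ckm, chr7:19405532-19405579, plus strand: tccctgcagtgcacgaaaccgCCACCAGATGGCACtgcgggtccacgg
Mef2c, chr13:83655059-83655089, minus strand: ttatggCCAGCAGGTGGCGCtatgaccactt
Ttn, chr2:76929891-76929916, plus strand: cccaCCTGCAGAGGGCACtagagacc

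In the footprints of about 30 bp the capitals start a few bases from the 5′ end, whereas those over 40 bp run further 5′ of the same motif. The second set shows 3 of these long ones that also hold the word CAGTGCC, here in capitals together with the CTCF motif.
Gm30717, chr7:125393826-125393868, minus strand: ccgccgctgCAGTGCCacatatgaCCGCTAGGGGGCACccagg
Gm5314, chr6:99804408-99804454, plus strand: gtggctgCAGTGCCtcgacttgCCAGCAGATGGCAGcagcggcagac
Gm14010, chr2:128396114-128396160, minus strand: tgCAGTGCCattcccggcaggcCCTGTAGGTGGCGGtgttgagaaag

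REST and NFI sites come next, with the motif in capitals. The Gm45520 pair are adjacent footprints in 1 intron, and the Irf2bp2 pair are adjacent in 1 intergenic peak. The Lin28a footprint of replicate 1 holds 2 REST matches.
4930589P08Rik, chr4:151604681-151604711, minus strand: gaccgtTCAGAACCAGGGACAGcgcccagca
Gm45520, chr8:14072725-14072751, plus strand: gggTCAGCACCAAGGACAGcaccagaa
Gm45520, chr8:14072765-14072790, plus strand: tggggTCAGCACCAAGGACAGcacca
Lin28a, chr4:134020799-134020847, minus strand: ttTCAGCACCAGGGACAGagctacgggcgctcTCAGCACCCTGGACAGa
Ccdc92b, chr11:74619325-74619359, minus strand: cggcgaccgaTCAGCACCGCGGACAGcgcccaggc
Irf2bp2, chr8:126666636-126666663, plus strand: gtcacTTGGCTGCCAGCCAGaggcctca
Irf2bp2, chr8:126666685-126666711, plus strand: actaccCTGGCGGGCTGCCAGccctgt
Arid3b, chr9:57831535-57831561, plus strand: cagaggCTGGCCAGCTGCCAAggcggg
Acat1, chr9:53610411-53610458, plus strand: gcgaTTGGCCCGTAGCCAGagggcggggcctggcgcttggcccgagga

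Promoter members with CCAAT in capitals follow. They include Ints3, the widest promoter member with the word, and the 3 in the most accessible peaks among promoter members with it. Also shown are members of Mef2d, which encodes a muscle transcription factor, and of Per1, a repressor in the circadian clock.
Ints3, chr3:90433664-90433722, plus strand: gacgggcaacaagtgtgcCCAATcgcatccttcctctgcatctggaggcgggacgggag
2610005L07Rik, chr8:20424807-20424849, plus strand: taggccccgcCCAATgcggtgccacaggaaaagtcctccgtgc
Bahcc1, chr11:120232842-120232877, plus strand: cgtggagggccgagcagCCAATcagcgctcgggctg
Rragc, chr4:123917350-123917392, plus strand: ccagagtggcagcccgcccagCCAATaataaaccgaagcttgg
Mef2d, chr3:88142275-88142322, minus strand: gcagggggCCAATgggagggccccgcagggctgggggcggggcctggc
Per1, chr11:69098815-69098846, plus strand: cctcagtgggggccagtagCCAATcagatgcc
Per1, chr11:69098885-69098910, plus strand: gctcttcgggcagaaggCCAATgagg

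The last promoter set shows TGACGTCA, the cyclic AMP response element, at Gtf3c1, Mrpl16, Ldha and Jund, then GGGCGG at Inpp5f and Akip1, then the NRF1 motif at Nup50 and Vapb, and last the ZNF143 motif at Crebl2 and Jarid2, each in capitals. Ldha encodes lactate dehydrogenase A and Jund a subunit of AP-1.
Gtf3c1, chr7:125707796-125707832, plus strand: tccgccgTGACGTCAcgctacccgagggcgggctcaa
Mrpl16, chr19:11770338-11770379, plus strand: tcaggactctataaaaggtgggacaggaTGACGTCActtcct
Ldha, chr7:46845789-46845828, plus strand: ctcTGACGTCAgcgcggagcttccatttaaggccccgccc
Jund, chr8:70698724-70698750, plus strand: ccccacccccaTGACGTCAacccacaa
Inpp5f, chr7:128611168-128611221, plus strand: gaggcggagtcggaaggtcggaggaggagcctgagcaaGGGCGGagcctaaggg
Akip1, chr7:109703624-109703674, minus strand: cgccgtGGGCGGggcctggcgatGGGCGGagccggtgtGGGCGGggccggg
Nup50, chr15:84923172-84923222, plus strand: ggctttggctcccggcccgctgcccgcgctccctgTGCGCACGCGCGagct
Vapb, chr2:173737471-173737500, plus strand: acccTGCGCATGCGCAgtctcccttttgtc
Crebl2, chr6:134830062-134830101, plus strand: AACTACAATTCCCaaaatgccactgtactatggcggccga
Jarid2, chr13:44730711-44730748, minus strand: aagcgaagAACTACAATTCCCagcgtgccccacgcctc

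The members were 30 bp wide at the median in both libraries. The 25th and 75th percentiles were 27 and 35 bp in replicate 1 and 28 and 35 bp in replicate 2, and the 95th percentile was 45 and 44 bp. Footprints as a whole had a median of 10 bp and ranged from 7 bp to 65 and 73 bp. Of the members, 42.3% and 42.4% were 25 to 29 bp wide, 30.6% and 32.3% were 30 to 34 bp, and 15% and 14.4% reached 40 bp. Both edges fell within 2 bp of each other in the 2 libraries for 55.3% of members. The median absolute difference in width was 2 bp, with a Pearson correlation of 0.646 over the members, a description over regions that share their libraries.

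**Figure D1:**
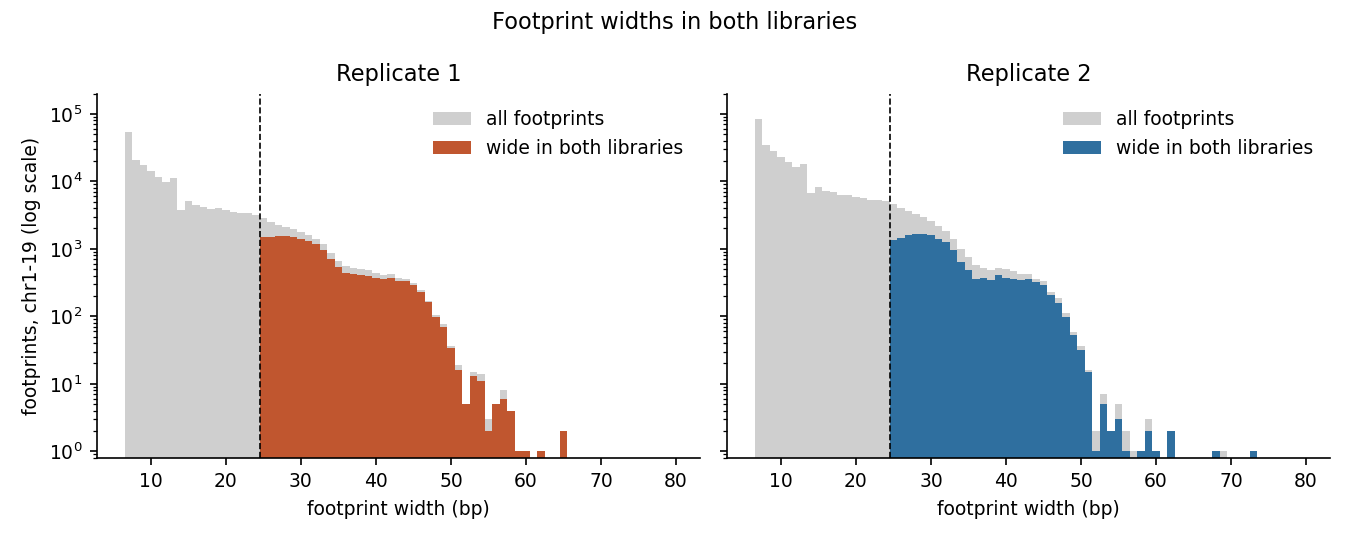
Number of footprints (log axis) by width in bp, for all footprints and for members, in each library. The counts fall from 7 bp onwards, and members start at 25 bp, the width that chose them.

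Wide footprints recurred more often than narrow ones. Among wide entries, 99.1% of replicate 1 and 91.2% of replicate 2 overlapped some entry of the other library, against 61.7% and 34.9% of narrower entries, although a wider entry also has more bases with which to overlap. A wide partner was found for 74.6% of the wide entries of replicate 1 and 53.7% of those of replicate 2. Just outside the threshold there were 3118 and 5158 entries of 24 bp, and just inside it 2845 and 4594 of 25 bp. Promoters held 46.5% and 38.3% of the 24-bp entries and 47.1% and 37.7% of the 25-bp entries. The CTCF motif stood in 9.21% and 6.29% of distal entries of 24 bp and in 11.2% and 6.95% of those of 25 bp. The limit cuts a continuous range.

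As a reference, 94332 narrow footprints were taken, under 25 bp in replicate 1, overlapping a narrow entry of replicate 2 and no wide entry of either library, 45259 at promoters and 44086 distal. Members lay in stronger peaks than these. At promoters the median rank of the peak, as a percentile of the authors' cut density among all peaks of that library, was 96.0 and 96.9 for members and 90.2 and 92.6 for narrow footprints. For distal sites it was 79.5 and 84.3 against 63.4 and 71.4. Footprints centred in no peak have no rank and were left out. At promoters 90.7% and 91.2% of members and 81.1% and 82.2% of narrow footprints were centred in a peak. At distal sites these shares were 98.2% and 98.4% against 92.3% and 93.3%. The median cut density of distal members was 2.13 and 1.51, against 1.2 and 0.873. The distal ranges overlapped, since the 25th percentile of distal members, 68.7 and 76.4, lay below the 75th percentile of distal narrow footprints, 78.1 and 83.0. A footprint can be detected only where there are enough cuts, and the part of peak strength in the width was not tested.

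Few peaks held a member. They were found in 14889 of 91292 peaks of replicate 1 (16.3%) and 14900 of 119391 of replicate 2 (12.5%). Of the top 10% of peaks by density, 53.2% and 50.9% held a member, and of the bottom 50%, 1.36% and 0.340%. At the centre base of distal members the median −log10 of the authors' false discovery rate for the cut rate was 10.3 and 14.5, against 4.77 and 6.74 in distal narrow footprints.

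The motif results are given as the share of members whose 50-bp window, centred on the footprint, holds the sequence on either strand, so that wide and narrow footprints were searched over the same length. In all, 36 motifs were searched. The largest difference in share from the narrow footprints was that of CTCF at distal sites. Of 10159 distal members, 2401 (23.6% in both libraries) held the 14-letter CTCF motif, against 1.69% and 1.65% of distal narrow footprints and 1.92% of all 50-bp tiles of the shared peaks that are distal. Footprints of 15 to 24 bp, nearer in width to the members, held it in 3.77%. At promoters, 390 and 387 members held it (5.52% and 5.48%), against 0.261% and 0.270% of narrow footprints and 0.406% of tiles. With up to 1 mismatch, a setting added after the first results, the distal shares were 52.1% for members and 5.61% for narrow footprints in replicate 1.

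CTCF members were not confined to 1 range of peak strength. In distal peaks of rank 80 to 90 the share was 26.8% and 27.5% for members and 0.715% and 0.849% for narrow footprints. In peaks below rank 60 it was 20.4% and 14.2%, against 2.54% and 2.73%. In narrow distal footprints the share fell at each step from the weakest to the strongest rank range in both libraries. In distal members it was highest in the range from 80 to 90, and above rank 90 it was 19.3% and 21.7%. Promoter members in the top range, above rank 90, held the motif in 3.58% and 3.94%, and those of rank 80 to 90 in 14.8% and 17.2%. Distal members with the exact motif lay in peaks of median rank 79.8 and 84.4, and those with no match of up to 1 mismatch in peaks of 80.2 and 84.8.

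The motif took a preferred place inside these footprints. It lay wholly inside the entry in 2376 and 2397 distal members, and in 99.9% of the former it was inside the entry of both libraries. The footprint most often began 5 bases before the motif and ended 10 bases after it, so that the covered stretch was shifted 3′ of the motif. Between 4 and 7 bases preceded it in 68.0% and 77.1% of cases. The strand was even, with 1145 matches on the plus and 1231 on the minus strand in replicate 1. At the median such a footprint was 31 bp wide. The plot of motif coverage along the footprint shows the same offset.

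**Figure D2:**
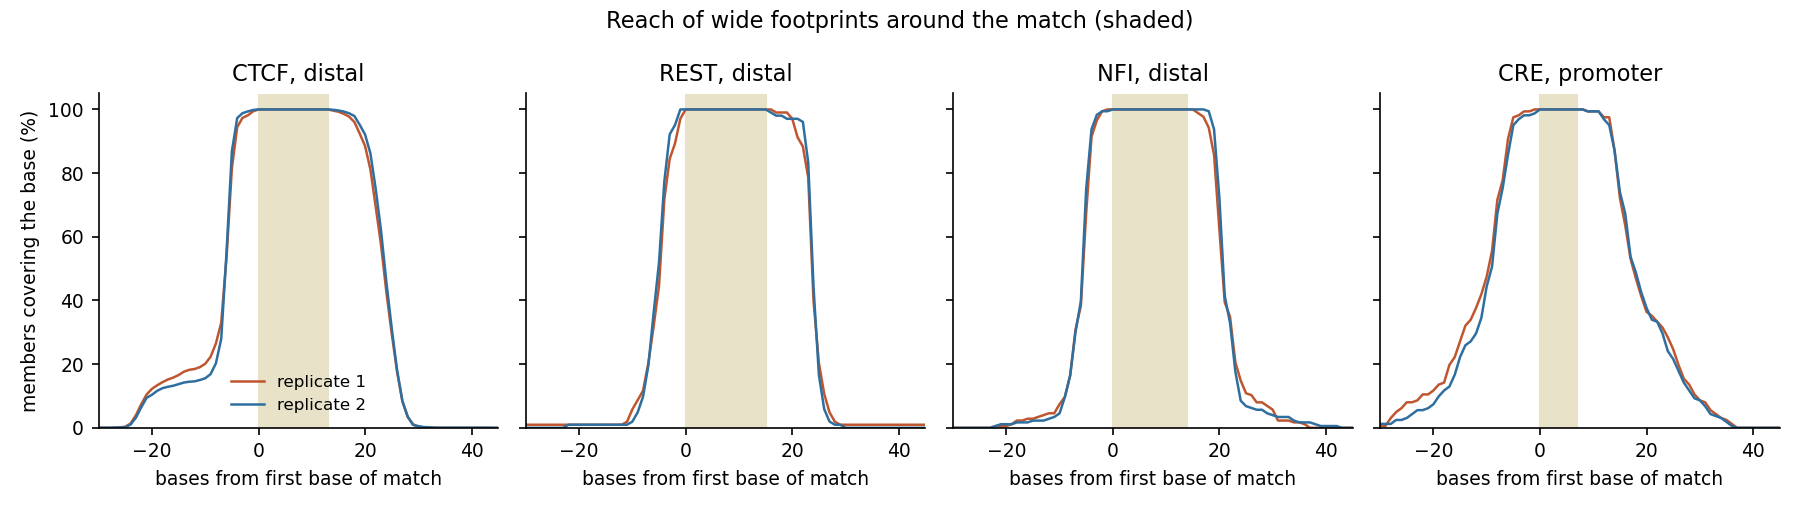
Percent of footprints that cover each base around the motif, with distance from the motif's start in bases on its own strand, for members of replicate 1 (orange) and replicate 2 (blue) that hold the CTCF, REST or NFI motif (distal) or TGACGTCA (promoter), with the motif shaded. The NFI and TGACGTCA palindromes were read on the plus strand. In the CTCF panel coverage rises steeply about 5 bases before the motif, with a lower shoulder further 5′, whereas the flanks of TGACGTCA are spread.

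CTCF shares had 2 maxima over footprint width. Among distal footprints of replicate 1 the share was 30.3% at 31 to 33 bp, 13.4% at 37 to 39 bp and 20.9% at 43 to 45 bp. It was 23.7% at 46 to 48 bp. Replicate 2 had 26.7%, 9.10%, 19.9% and 18.4% in these bins. Distal members with the motif inside the entry were then split at a reach of 15 bases 5′ of it, a cut chosen after the data were seen. The group with at least 15 bases made up 394 (16.6%) and 329 (13.7%) of these CTCF footprints. The cut itself sets part of the differences in 5′ reach and width that follow. Its median width was 43 bp in both libraries, with 21 bases 5′ and 8 bases 3′ of the motif. The rest were 30 bp wide at the median, with 5 bases 5′ and 10 and 11 bases 3′.

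**Figure D3:**
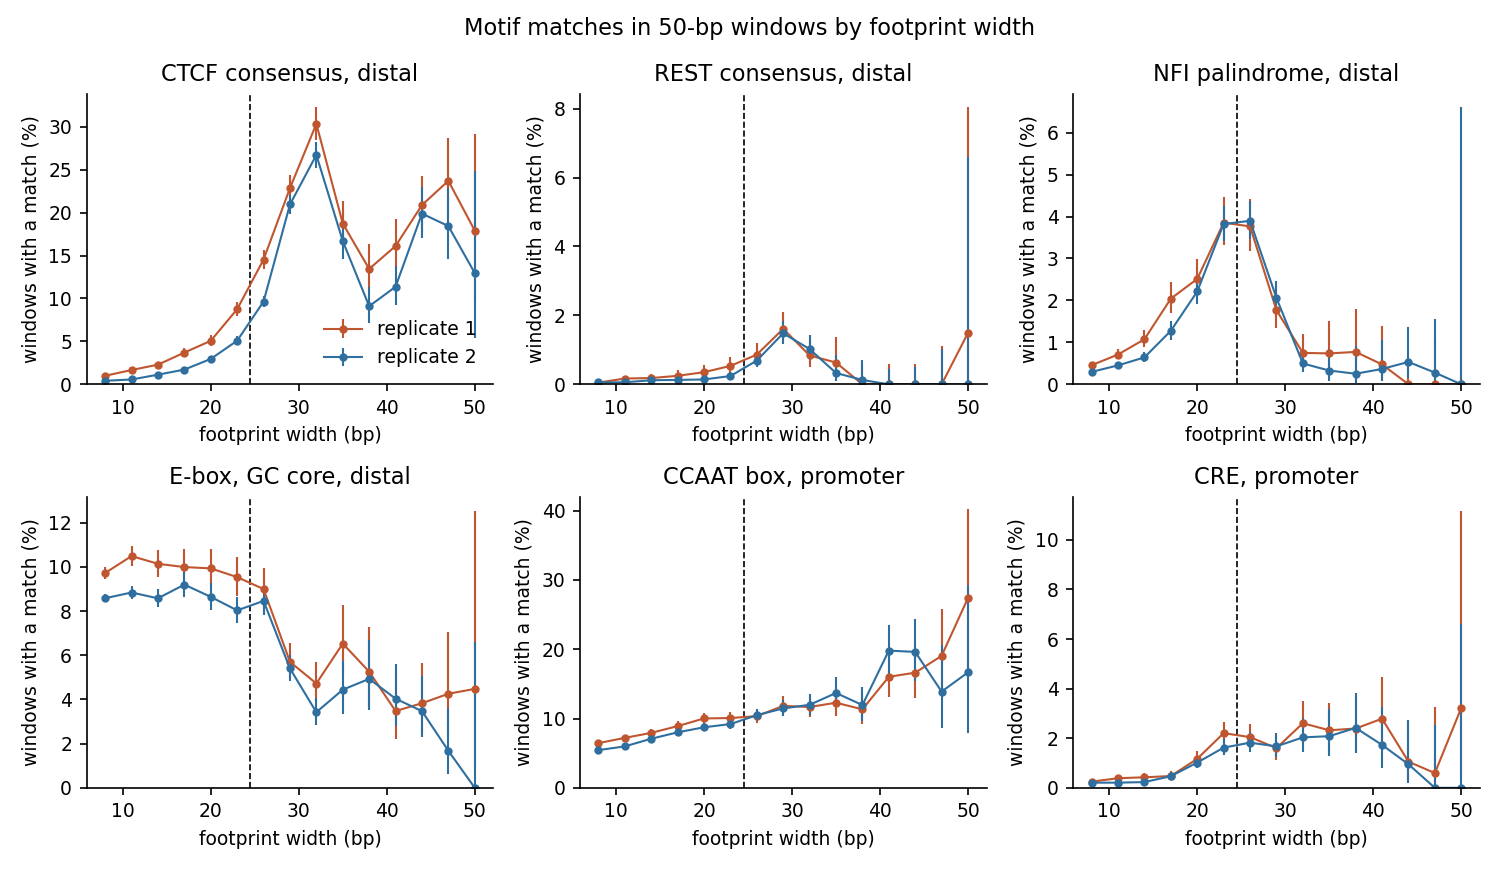
Percent of 50-bp windows that hold CTCF, REST, NFI or CAGCTG (distal) or CCAAT or TGACGTCA (promoter) against footprint width in bins of 3 bp (x axis, bp), over all footprints of replicate 1 (orange) and replicate 2 (blue), with exact 95% binomial intervals that cover counting error only and a dashed line at the width limit. The distal CTCF curve peaks at 31 to 33 bp and rises again above 40 bp in both libraries, NFI peaks around the limit, and CAGCTG drops from 28 bp upwards.

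The word CAGTNCC was searched next to the motif after the hexamer shares had been seen. It was sought in the 40 bases 5′ of the motif, whatever the reach of the footprint. With up to 1 CTCF mismatch, it stood there in 14.0% and 15.7% of distal footprints that reached 15 or more bases 5′. For those that did not, the shares were 2.46% and 2.58%. With the exact motif they were 6.60% and 7.29% against 1.97% and 1.98%. The place of the word was narrow. With up to 1 mismatch, the word began 15 bases before the motif in 166 and 171 members and 16 bases before it in 22 and 22. With the exact motif, 23 members in each library had the 15-base spacing. The Gm30717 and Gm5314 sequences above have the 15-base spacing, and the Gm14010 sequence has 20. Among all distal members, CAGTNCC was in the 50-bp window of 9.98% and 9.93%, against 5.20% and 5.22% of narrow ones, and in members of 40 bp or more it was in 20.1% and 21.5%. The window share was 7.71% in both libraries for distal members with the exact CTCF motif, and 11.1% and 10.9% with 1 mismatch. For distal members with neither it was 10.4% and 10.5%, so the window share was not particular to CTCF members.

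The CTCF matches were varied in sequence. They comprised 171 different words over the 9829 distal members in which words were counted. The commonest at distal members was CCACCAGGGGGCAG, in 119 members, followed by CCAGCAGAGGGCGC in 95 and CCAGCAGGGGGCGC in 88. At promoters CCGCCAGGGGGCGC led with 34. Among 2834 distal members with a single match that had 1 mismatch, the mismatch stood most often at position 5 of the motif, counted from 1 at its 5′ end. That position accounted for 718 members, of which 551 carried A there. Position 1 followed with 614 and position 12 with 459, and position 7 was mismatched in 13.

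REST matches were rare. They stood in 103 distal members (1.01% in both libraries), against 0.122% and 0.125% of narrow footprints and 0.112% of tiles. At promoters 28 members held them (0.396%), against 0.0354% in both libraries. Of the distal matches, 29 were the word TCAGCACCACGGACAG. The footprint was 29 bp wide at the median, with 4 bases before the motif most often and 8 bases after it. The first Gm45520 sequence above shows this offset, with 3 bases before and 8 after the motif, whereas the Ccdc92b sequence has 10 and 9. Lin28a encodes an RNA-binding protein of early development that blocks let-7 maturation, and its footprint was 49 bp in replicate 1 and 26 bp in replicate 2, where the entry started 22 bases later.

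NFI matches stood in 175 and 176 distal members (1.72% and 1.73%), against 1.08% and 1.09% of narrow footprints and 0.451% of tiles. At promoters 60 members (0.850%) held them, against 0.113%. NFI is not among the 8 motifs named by the size of the difference and is described because its place in the width range differed. The share over all distal footprints was highest at 22 to 27 bp, so it straddled the limit of 25 bp. It was 2.51% and 2.21% at 19 to 21 bp and 3.85% and 3.82% at 22 to 24 bp. These shares lay above that of distal members, so at distal sites the direction depended on the comparison. NFI footprints were 27 bp wide at the median, with 5 bases before the motif and 5 or 6 after it most often. The palindrome was placed on the plus strand, so its sides follow the chromosome. The Irf2bp2 and Arid3b sequences have 5 or 6 bases before it and 6 or 8 after it.

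The E-boxes CAGCTG and CACCTG, which basic helix-loop-helix proteins such as MyoD bind, went opposite ways at distal sites. CAGCTG, the core of the classic myogenic E-box, was in 547 and 524 distal members (5.38% and 5.16%), against 10.1% of narrow footprints in both libraries, 9.96% of footprints of 15 to 24 bp and 8.96% of tiles. Over all distal footprints the share was 9.53% and 8.03% at 22 to 24 bp, 8.99% and 8.46% at 25 to 27 bp, and 4.72% and 3.42% at 31 to 33 bp, so it dropped inside the range of the members. Of the 547, 63 also held the CTCF motif. Promoter members held it in 2.29% and 2.38%, against 3.48% and 3.49%. CACCTG was in 939 and 940 distal members (9.24% and 9.25%), against 4.23% and 4.22%, and in 2.80% and 2.82% of promoter members, against 2.35% in both libraries. For 396 of the 939 (42.2%) the CACCTG overlapped a CTCF match, and without these the share was 5.35%, beside 5.27% of footprints of 15 to 24 bp with such overlaps kept. The widest members with each E-box are shown here in the same way, together with the Myod1 member 2761 bp downstream of the start of that gene, a master regulator of the muscle lineage.
Cln8, chr8:14880310-14880359, plus strand: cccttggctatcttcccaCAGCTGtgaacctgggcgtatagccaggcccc
Msl1, chr11:98787033-98787083, plus strand: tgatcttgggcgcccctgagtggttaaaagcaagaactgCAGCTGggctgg
Myod1, chr7:46379223-46379247, plus strand: aagggctggcagacctcCAGCTGta
Gm11969, chr11:6187979-6188028, plus strand: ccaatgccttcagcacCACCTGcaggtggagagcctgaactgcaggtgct
Gm12245, chr11:57934447-57934496, plus strand: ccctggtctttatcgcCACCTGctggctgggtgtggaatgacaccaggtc

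Among other muscle-related and enhancer motifs, the order of members and narrow footprints differed between distal sites and promoters for GGAATG, MEF2 and GGGCGG. For AP-1 the promoter shares were nearly equal. GGAATG, the MCAT element bound by TEAD factors, was in 2.60% and 2.57% of distal members against 3.52% of narrow footprints in both libraries, and in 1.98% and 1.95% of promoter members against 1.59% and 1.62%. Among members that could be printed, the 2 widest with it were the Aanat and Gm12245 footprints shown above. The AP-1 site TGANTCA was in 1.03% and 1.04% of distal members against 1.75% and 1.76%. At promoters it was in 0.510% and 0.481% of members against 0.502% and 0.499%. The MEF2 motif was rare, in 8 promoter members (0.113% in both libraries, against 0.0221% and 0.0287% of narrow footprints) and in 1 distal member (0.00984%, against 0.0817% and 0.0794%). GGGCGG was in 3.51% and 3.47% of distal members against 5.64% and 5.59%.

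**Figure D4:**
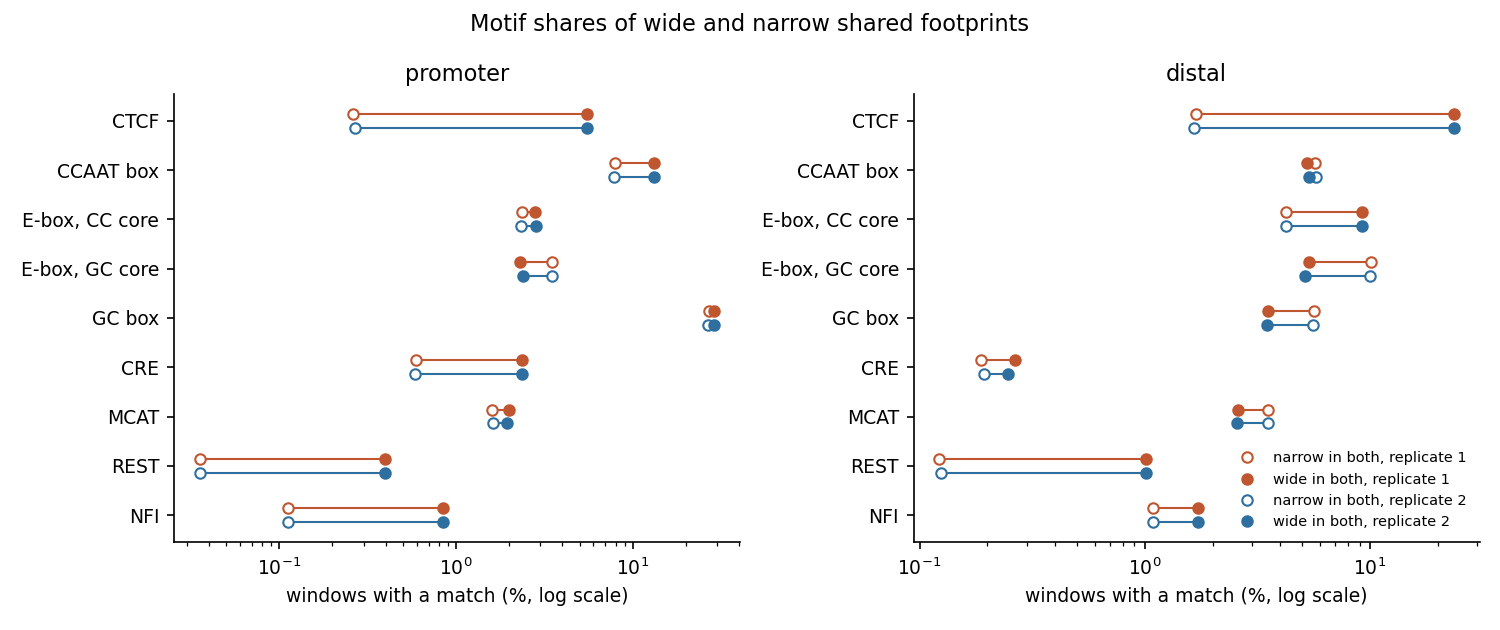
Percent of footprints with each named motif in the 50-bp window (log axis), for members (filled) and narrow shared footprints (open) of replicate 1 (orange) and replicate 2 (blue), promoter and distal. Members lie above narrow footprints for CTCF, REST and NFI in both classes, and below them for CAGCTG in both classes.

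Promoter members held CCAAT and the cyclic AMP response element more often than narrow promoter footprints. CCAAT was in 937 and 936 promoter members (13.3% in both libraries), against 7.9% in both, 9.86% of promoter footprints of 15 to 24 bp and 6.74% of tiles. Distal members had 5.28% and 5.37%, against 5.73% and 5.74%. The share was 19.4% and 19.2% in promoter members of 40 bp or more. CCAAT lay inside the entry itself in 615 and 603 promoter members, and 37 and 36 of these held 2 or more. Entries with 1 copy were 33 bp wide at the median in both libraries, those with 2 or more 39 and 40.5 bp, and those with none 31 and 30 bp. Copies were counted inside the entry, where a longer entry has more positions for the word, so this order is partly built in. Distal entries with 1 copy were 33 and 32 bp wide, and the 8 with 2 or more in each library 29.5 and 30.5 bp. In the Ints3 and Mef2d sequences above the word takes up a small part of the covered bases. A member of the same mean width as that of Ints3, with 58 and 59 bp, lay in an intron of Foxn3, 925 bp from a start.

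TGACGTCA was in 166 promoter members in each library (2.35%), against 0.592% and 0.588% of narrow ones, 1.34% of those of 15 to 24 bp and 0.438% of tiles. At distal sites it was in 0.266% and 0.246% of members, against 0.188% and 0.193%. Among members that could be printed, the widest with the word was distal, nearest to Gm26863, and 47 bp in both libraries. Its centre lay in no peak of replicate 2. The palindrome reads the same on both strands and was placed on the plus strand. At the median it had 9 bases on its left and 10 on its right in both libraries. These sides follow the chromosome, so they do not show whether single matches sat in the middle of the entry. GATGACG, searched after the hexamer shares were known, was in 1.91% and 1.90% of promoter members against 0.437% in both libraries. It joins ATGACG and GATGAC, hexamers ranked by their ratio to the same narrow footprints, so a higher share was built into its choice.

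For GGGCGG the direction depended on the comparison. It was in 28.9% and 28.7% of promoter members, above the 27% and 26.8% of narrow promoter footprints and the 20.7% of tiles, but below the 37.4% of promoter footprints of 15 to 24 bp. Further promoter motifs were more common in members. The NRF1 motif, bound by a regulator of nuclear genes for mitochondria, was in 1.40% and 1.37% against 0.661% and 0.663%, and the ZNF143 motif in 0.595% against 0.241% and 0.243%. The word CTCGCGAG was in 0.751% and 0.722% against 0.320% and 0.318%. TATCGCGA, a search added after values were seen, was in 0.283% against 0.0530% and 0.0508%. None of the 36 motifs was present in 40.2% of promoter and 48.8% of distal members of replicate 1.

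Short words not fixed by any motif list gave a similar picture. By ratio to narrow distal footprints, the leading hexamer of distal members was AGCGCC, in 13.7% of them in both libraries against 2.80% and 2.75% in narrow footprints. It was followed in replicate 1 by GCGCCC in 15.3%, CGCCAC in 9.96%, GCGCCA in 12% and CACTAG in 11.3%. The next were GGCGCC in 7.70%, CCACTA in 9.04%, GCGATA in 0.787%, CGCTAG in 2.68% and GCGCTA in 2.38%, so that the 10 words had shares 3.72 to 4.90 times those of narrow footprints. Several of these words can be read in the printed CTCF sequences, such as the end of the motif and the bases after it at Rdh8.

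In promoter members the leading hexamer was ATGACG, in 3.23% and 3.17% against 0.979% and 0.988%, a ratio of 3.30 in replicate 1. Those that share bases with the cyclic AMP response element were ACGTCA in 5.23%, GACGTC in 3.47%, and GATGAC in 2.78%. The remaining words of the 10 were ATCATA in 0.510%, CGTATA in 0.184%, TCATCA in 1.66%, AATCAT in 0.935%, ACTATA in 0.411% and CACTAG in 2.66%, with ratios of 2.29 to 2.85.

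Promoter members lay upstream of the start more often than narrow promoter footprints. Their centre was upstream in 76.3%, against 62.0%, and in the first 100 bp upstream in 49.2%, against 37.5%. The median position was −46 bp for members and −20 bp for narrow footprints. In the first 50 bp downstream of the start the order was the other way, with 12.8% of members and 18.6% of narrow footprints. The motifs took different places: CCAAT was in 18.8% of members between −100 and −50 bp and in 7.95% of those from 0 to 50 bp, whereas TGACGTCA reached 4.13% between −50 bp and the start. The CTCF share was 1.66% from 0 to 50 bp and 21.2% from 350 to 400 bp, a bin of 52 members. By annotation, 47.1% of promoter members were intergenic and 23.2% in an untranslated region, against 32.8% and 33.0% of narrow ones.

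**Figure D5:**
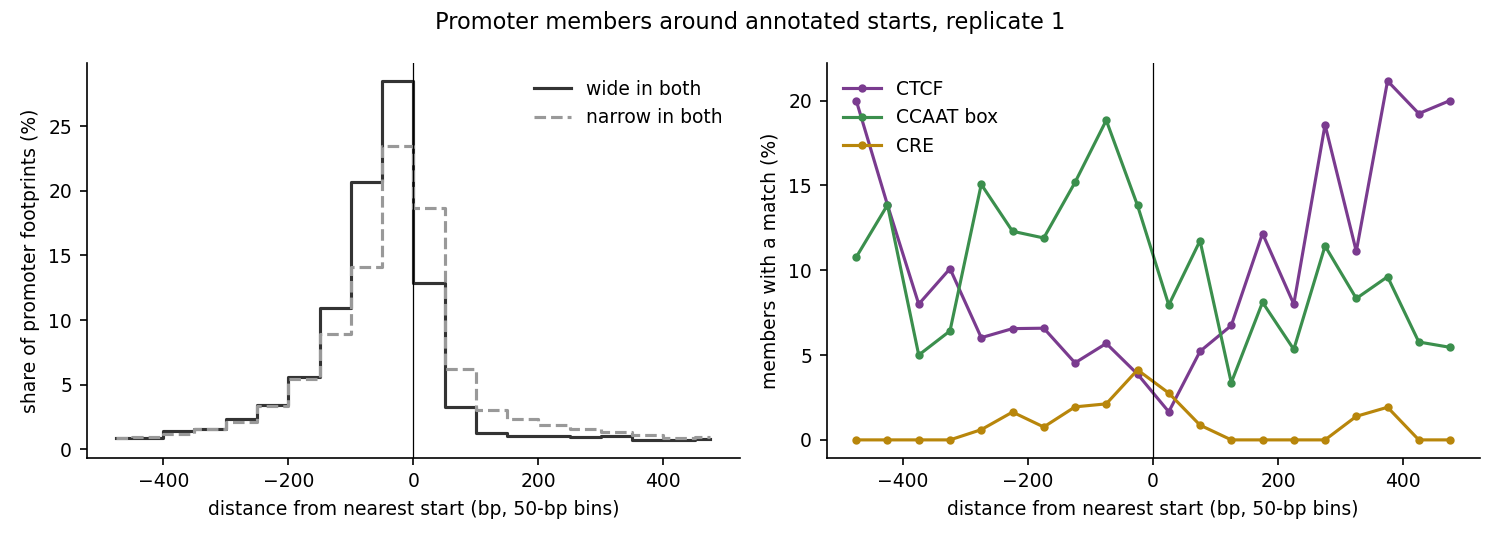
Position of promoter footprints relative to the nearest annotated start, in bins of 50 bp (x axis, bp, negative upstream), as percent of members (solid) and of narrow shared footprints (dashed) of replicate 1, with the percent of members in each bin that hold CCAAT, TGACGTCA or the CTCF motif. Members are concentrated just upstream of the start, and CCAAT peaks further upstream than TGACGTCA.

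Distal members were spread over introns and intergenic DNA. Introns held 44.7% of them and intergenic sequence 48.5%, against 46.9% and 45.2% of distal narrow footprints. The median distance to the nearest start was 9144 bp, against 10222 bp. The GC content of the 50-bp window was 57.2% and 57.1%, against 56.0% in both libraries, and a CpG was present in 71.9% and 71.7% of windows, against 63.4%. At promoters the GC content was 65.9% and 65.8%, against 67.1% and 67.0%.

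Genes for transfer RNAs, which RNA polymerase III transcribes from promoters inside the gene also carried members. Among distal members without a CTCF match of up to 1 mismatch, GTTCGA was the leading hexamer, in 1.46% against 0.247% of narrow distal footprints. Among 386 annotated tRNA genes on chromosomes 1 to 19, 90 (23.3%) had a member over them, and 72 had a narrow shared footprint. The 101 members concerned were 0.559% of all members, whereas 0.0965% of narrow footprints lay over a tRNA gene. They were 35 bp wide at the median, and 73 held GGTTCGA, the core of the B box where TFIIIC binds, inside the entry. Serine tRNA genes carried 11 of the members and arginine tRNA genes 9, and a few genes carried more than 1. These counts were not set beside the number of annotated genes for each amino acid, so they show no preference. The tRNA search and the B box were added after the hexamers were seen. In the examples below GGTTCGA is in capitals. The n-TStga3 gene lies on the minus strand, so its capitals mark the word on the opposite strand, overlapping the gene's own copy.
n-TStga3, chr10:63429476-63429517, plus strand: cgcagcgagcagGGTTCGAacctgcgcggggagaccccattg
n-TSaga9, chr4:10874110-10874149, plus strand: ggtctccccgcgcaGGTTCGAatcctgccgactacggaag

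Of 20780 protein-coding genes, 5057 (24.3%) had a promoter member, and these made up 36.6% of the 13811 genes with a promoter peak in both libraries. Most had few: 3320 genes had 1, 1234 had 2, 393 had 3 and 110 had 4 or more. Dazap1, an RNA-binding protein gene, had the most with 7, of which 2 lay nearest to the start of its divergent neighbour Gamt, the creatine synthesis enzyme. H2-DMa, which loads peptides on class II molecules, and Rab11b, a recycling endosome GTPase, had 6 each. Cdkn2d, a cell-cycle inhibitor, Cntrl, a centriole protein, Dazap2, Deaf1, a transcription factor, and Esyt2, a membrane tether, had 5 each. They are the first in alphabetical order among the genes with 5, which also include Jun. The promoter members of 1 gene can belong to several starts, and those between divergent genes were counted for both. All of the Deaf1 members lay nearest to starts of Tmem80, and some of the Rab11b members to a start of Gm17251.

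Members were frequent at immediate early and clock genes. Among immediate early genes, which respond to stimuli within minutes, 13 of 18 had a promoter member (72.2%), and among circadian genes 11 of 17 (64.7%), beside 36.6% over all genes with a promoter peak. Both lists are short, and neither share was tested. Jun, a subunit of AP-1, had 5 members in a row, centred at −34, −95, −156, −218 and −293 bp from the start, with widths of 32, 37, 37, 35 and 34 bp in replicate 1 and 37, 37, 38, 35 and 26 bp in replicate 2. They followed each other at nearly even steps. Atf3, a stress-induced repressor, had 4 members, and Dusp1, a MAP kinase phosphatase, had 4 as well. Egr1, a zinc-finger factor, had 3, Fosb, another AP-1 subunit, and Klf6, a zinc-finger factor, 2 each, and Nr4a1, an orphan nuclear receptor, and Gadd45b, a stress sensor, 1 each.

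Among the clock genes named, CCAAT was in the windows of Per1, Per2 and Ciart members and in none of those of Clock, Cry1, Nr1d1, Nr1d2 and Tef. Per1 had members at −118, −51 and 438 bp, and CCAAT was in the window of each. Per2, a second repressor of the clock, had a member at −90 bp of 27 bp in replicate 1 and 40 bp in replicate 2, also with CCAAT, and Ciart, a further repressor, had one of 38 and 37 bp at −81 bp with CCAAT and the E-box CACGTG. Cry1, their partner, had 3 members, the widest of 45 and 43 bp at −366 bp, without any of the 36 motifs. Nr1d1 and Nr1d2, the REV-ERB nuclear receptors, had a member each, at −94 and −91 bp, Clock, the activator, had 1 at −5 bp, and Tef, an output factor, 3.

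For muscle genes the shares were lower. Of 20 myogenic regulators 7 had a promoter member (41.2% of the 17 with a promoter peak), of 30 sarcomere and Z-disc genes 6 (28.6% of 21), of 15 genes of the dystrophin complex 3 (21.4% of 14), of 19 genes of excitation and calcium handling 4 (28.6% of 14), and of 16 genes of energy metabolism 4 (26.7% of 15). The shares of the last 4 lists lay below the 36.6% of all genes with a promoter peak, untested.

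Among the myogenic regulators, Mef2d had a promoter member of 48 bp in both libraries at −74 bp, with CCAAT and GGGCGG. Mef2a had a member at −13 bp of 29 and 30 bp with the MEF2 motif. Tcf3 and Tcf4, the E-protein partners of MyoD, had members at −40 and −11 bp, Tead1 at 19 bp with GGAATG and GGGCGG, and Srf, serum response factor, at −16 bp. The sarcomere genes with a member were the tropomyosin genes Tpm1, Tpm2 and Tpm3, the slow troponin T gene Tnnt1, and the light chain genes Mylpf and Myl4. Tpm2 had a member of 41 bp in both libraries at −471 bp with CAGCTG. Mylpf shares its promoter region with Tbc1d10b, which was nearer to 1 of its 2 members, and Myl4 shares it with Cdc27, which was nearer to 2 of its 3.

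In the other muscle lists the genes were Dag1, Sgcb and Vcl, then Atp2a2, Asph, Bin1 and Jph1, then Gys1, Slc25a4, Esrra and Ldha. Dag1, dystroglycan, had 3 members, of 32, 43 and 46 bp in replicate 1 and 28, 31 and 41 bp in replicate 2, each with GGGCGG. Gys1, muscle glycogen synthase, had 3 too, of which the widest, 46 and 50 bp at −17 bp, held CAGCTG and lay in a peak of rank 99.9 in both libraries. The Ldha member, 40 and 36 bp at −31 bp, held TGACGTCA, GGGCGG and the CArG box of serum response factor, and its sequence is printed above. Esrra, an orphan nuclear receptor of energy metabolism, had 2 members, both with GGGCGG, and Slc25a4, the adenine nucleotide carrier of muscle mitochondria, had 1.

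Several strongly muscle-specific genes had no promoter member. Distances here are to the nearest of all annotated transcript starts of the gene, which need not be its main start. The Ckm member, 48 and 47 bp, lay at 779 bp in an intron and held the CTCF motif. That of Ttn, 26 and 29 bp, lay in an intron 2337 bp from such a start and held the motif too. Myod1 had members 2694 and 2761 bp from its start, the first with the CTCF motif and GGGCGG. The nearest members to Ryr1, the calcium release channel, and to Des, desmin, were 3141 and 8514 bp from a start of the gene. Those of Tnnt3, Myog and Acta1, fast troponin T, myogenin and skeletal actin, were at 8442, 42080 and −54523 bp. Promoter peaks in both libraries were present at 7 of 8 skeletal muscle markers, 4 of 4 fibroblast, 2 of 3 endothelial, 2 of 3 Schwann cell, 0 of 3 macrophage, 0 of 1 erythroid and 0 of 3 hepatocyte markers. The part of the other cell types in the footprints was not tested.

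Of 20 fibroblast and matrix genes 7 had a promoter member (36.8% of the 19 with a peak, beside 36.6% over all genes with a promoter peak): Pdgfra, Col1a1, Col3a1, Col6a2, Col6a3, Fn1 and Twist1. That of Fn1, fibronectin, at −8 bp held TGACGTCA and CCAAT, and that of Pdgfra, a growth factor receptor of mesenchyme, held the CTCF motif. Housekeeping genes had 12 of 23 (52.2%, beside the same 36.6%, untested). Vcp, an ATPase of protein quality control, had a member of 49 and 46 bp at −63 bp with CCAAT, and Rplp0, a ribosomal stalk protein, had 4, of which those at −89 and −29 bp held CCAAT. Psmb2, a proteasome subunit, held CCAAT and TGACGTCA in 1 of its 2 members, and Actb and Gapdh each had a member with the CTCF motif. Vps29, Snrpd3 and B2m were the others named.

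Genes for the factors themselves were also represented. Of 8 genes of CTCF and cohesin 4 had a promoter member, beside 36.6% of all genes with a promoter peak: Smc3, a cohesin subunit, had 4, Stag1, another, had 2, and Nipbl and Pds5b, a cohesin loader and a regulator, had 1 each. The CTCF motif stood in those of Stag1 and Pds5b. Of 17 general promoter factors 9 had one (52.9%, beside the same 36.6%), and neither share was tested. Among them Zfp143 had 4 members, the widest of 45 and 43 bp at −59 bp with CCAAT and GGGCGG. Yy1 had 2, of which 1 held TGACGTCA and the other CCAAT, and Rfx1 had 2, of which 1 held CCAAT. Nfyb, a subunit of NF-Y, had 2 with GGGCGG and none with CCAAT, and Nrf1 and Nfyc had 1 each. Usf2 had 1 with the CTCF motif, CACCTG and GGGCGG, and Elf1 had 3, nearest to the starts of Wbp4.

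The widest members were more than 50 bp long. At promoters they were nearest to Gm10719, with 65 and 68 bp, Hexim2, with 57 and 62 bp, Ints3, with 59 and 58 bp, Spsb3, with 56 and 60 bp, Fbh1, with 57 and 56 bp, and Leprot, with 65 and 43 bp. CCAAT was in the window at Ints3, Spsb3 and Fbh1. The first, at chr9:3019057-3019121, lay in no peak of replicate 1 at its centre and in a peak of density 42.2 and rank 100 in replicate 2. The peak lists thus differed there, although the footprints were alike. No regions were left out for unusually high signal. The widest distal members were nearest to Gm11403, with 62 and 73 bp, AC154187.1, with 60 and 49 bp, Slc1a2, with 53 and 52 bp, Txn2, with 50 and 53 bp, Gm9075, with 50 and 51 bp, and Gm39473, with 53 and 48 bp. The AC154187.1 and Slc1a2 members held the RFX motif and none of the 6 held the CTCF motif. The Gm39473 peak had a rank of 99.7 in replicate 1 and 84.8 in replicate 2.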

How the data were processed

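DNase-seq was available for both libraries as footprint lists, peak lists and a track of the false discovery rate of the cut rate, all on mm10 per the file listings. For the aligner and both callers, names were not given in the sources used here. The footprint lists as deposited carry a constant score of 0.01 for every entry. The peak lists hold the authors' cut density, a signal per peak. The deposited track gives the false discovery rate, a q-value, at positions below 0.05.

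Footprints of the 2 libraries were joined by overlap, classed by GENCODE vM21 starts, and placed in peaks by their centre. Ranks are percentiles of density within a library. Motifs were searched on both strands of RefSeq GRCm38.p6 in a 50-bp window, and patterns of 10 or more letters with ambiguous bases are given by name. CTCF and REST words were counted without chromosome 18. Python 3.11.15, numpy 2.4.6, pandas 2.3.3, scipy 1.17.1 and matplotlib 3.10.9 were used. The overlap and motif steps were tested on simulated data. No test was made, since there is 1 group.

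The members and lists were chosen with earlier results of these data known. Named were the 6 widest members of each class, the 2 widest with each of the 8 motifs whose share differed most, listed genes with a promoter member (the 8 with the widest members in longer lists), the 8 genes with most promoter members and 10 hexamers a class. The 2 widest for each motif were taken off chromosome 18 and outside untranslated regions. NFI, the strongest-peak and gene-locus sequences, marker loci, tRNA genes, mismatched CTCF matches, rank ranges, CAGTNCC and the other added words were chosen after values were seen. Alternatives were another width, overlap, window, peak list, promoter distance and comparison, and each library alone. Results for 1 listed gene are not reported here.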

Additional observations from a re-analysis of the deposited data

How the results depend on the processing

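Of 51 alternatives over 7 results, 36 moved the value by less than the spread between the libraries, or a count by less than 1.5 times. This spread was the standard deviation of the values for all wide footprints of each library alone. It was 5.87 percentage points for the promoter share and 2.67 for the distal CTCF share, which for members was 23.6% in both libraries. The values of each library alone were also judged by it, so their labels carry little weight. The number of members, 18064, became 33160 with a width of 20 bp and 8051 with 30 bp, and each library alone gave 24230 to 33632 wide footprints. The promoter share of 39.1% was 32.9% with promoters within 200 bp, and the distal share of 56.2% was 38.1% for sites over 5 kb from a start, both by construction. The median peak rank of 88.0 was 89.2 with a width of 30 bp and 80.2 on the shorter peak list, and 86.1 to 86.9 for each library alone. The GC content of 60.8% was 64.3% in the entry itself and 58.3% in a 100-bp window. The distal CTCF share of 23.6% was 18.1% with a width of 20 bp and 52.1% with up to 1 mismatch, and 16.6% to 20.4% for the wide footprints of each library alone. Members differed from narrow footprints by at least 1 percentage point in the same direction in both libraries for 9 of 72 pairs of motif and class, and for 8 to 12 under the alternatives. The cause of these shifts was not tested beyond the construction of each alternative. No paired analysis was possible because there is 1 group and no test. The number of reads is not given, so the depth that limits narrow and weak footprints is unknown.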
